A study of Mus musculus with 19 samples.

Results

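The genes described here are nicotinamide nucleotide transhydrogenase (Nnt), the enzymes of glutathione and thioredoxin metabolism, and the enzymes that remove superoxide and peroxides, as expressed in mouse pancreatic islets. They were chosen by name: each probe on the array whose gene name starts with Gst, Gpx, Prdx, Sod, Gcl, Glrx or Txnrd, or is one of a short list of single genes, was taken, whatever its values. This gave 79 of 41174 probes, carrying 55 of the 29742 gene names or identifiers on the array. Of these, 71 probes (51 names) were bright enough to be tested, and 66 of the 71 were well above background in every mouse. The 8 probes that were not tested included 1 each for Glrx2, Gsta1, Gsta2, Gpx5, Gpx6, Sod1 and Sod3, each well above background in at most 2 mice, and Gsta2, Gpx5, Gpx6 and Sod3 had no other probe. The probe named Gcl belongs by its accession to Gmcl1, a germ cell gene, and is counted by its name only. The array had no probe under 2 further names, Me3 and Srxn1.

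Islets came from C57BL/6 (B6) and C57BLKS/J (BLKS) mice 12 weeks old, with the islets of each mouse kept apart. After 48 h in 11 mM glucose they were cultured for 24 h in 5 mM glucose (low glucose, 5 B6 and 5 BLKS mice) or 20 mM glucose (high glucose, 5 B6 and 4 BLKS mice). The mice were non-obese by the study's account, and BLKS is an inbred strain whose genome mixes B6 and DBA segments, so each strain difference is one between whole genomes. RNA of the 19 mice was hybridised to 20 Agilent arrays read in 2 colours, where mice of both strains that carry the same number share an array pair, and values are log2 signals averaged over the dyes of a mouse.

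Cells meet superoxide and hydrogen peroxide as by-products of respiration. Superoxide dismutases turn superoxide into hydrogen peroxide, and catalase, glutathione peroxidases and peroxiredoxins reduce it further, drawing on glutathione or thioredoxin that reductases restore at the cost of NADPH. Nnt sits in the inner mitochondrial membrane and makes NADPH there from NADH and the proton gradient. The C57BL/6J substrain is known to carry a deletion in Nnt, and the beta cell is known for low catalase and glutathione peroxidase activity. NRF2, the product of Nfe2l2, switches on many of these genes when KEAP1 releases it.

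Before any comparison, 2 libraries have to be set apart. At 103 probes outside the chosen genes that differed over 2-fold between the strains in high glucose, mice were given a position between the high-glucose means of B6 (0) and BLKS (1). One library, labelled B6 low glucose 4, lay at 1.02 and another, labelled BLKS low glucose 5, lay at -0.04, whereas the other B6 low-glucose mice lay between -0.06 and 0.03 and the other BLKS low-glucose mice between 0.94 and 1.01. The labels were kept as given in the main fit, and where leaving out both libraries ends or adds a call at a chosen probe named here, the value without them is given. The 9 array pairs that hold both strains were each read in both dye orientations, correlations between mice across all tested probes were from 0.981 to 0.998, and the number of arrays limits the precision.

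The lower Nnt signal of B6 islets was the largest strain difference in high glucose among the tested probes of these genes. All 3 Nnt probes were well above background in every mouse. At probe A_51_P113395, B6 mice in high glucose read 7.76, 7.70, 7.71, 7.81 and 7.66, and BLKS mice 9.69, 9.75, 9.77 and 9.93. Every BLKS mouse was far above every B6 mouse, and the values within a strain lay close together. In low glucose the probe read 7.74, 7.71, 7.79, 9.58 and 7.63 in B6 mice and 9.40, 9.5, 9.61, 9.52 and 7.63 in BLKS mice. The groups overlapped there solely through B6 low glucose 4, which read like a BLKS mouse, and BLKS low glucose 5, which read like a B6 mouse. Probe A_52_P395228 read 8.17, 8.18, 8.13, 8.18 and 8.02 in B6 and 10.14, 10.10, 10.12 and 10.18 in BLKS islets in high glucose. Probe A_51_P113399 read 7.41, 7.50, 7.46, 7.61 and 7.42 in B6 and 9.17, 9.47, 9.40 and 9.58 in BLKS islets. All 3 probes thus ordered the high-glucose mice by strain without overlap.

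**Figure D1:**
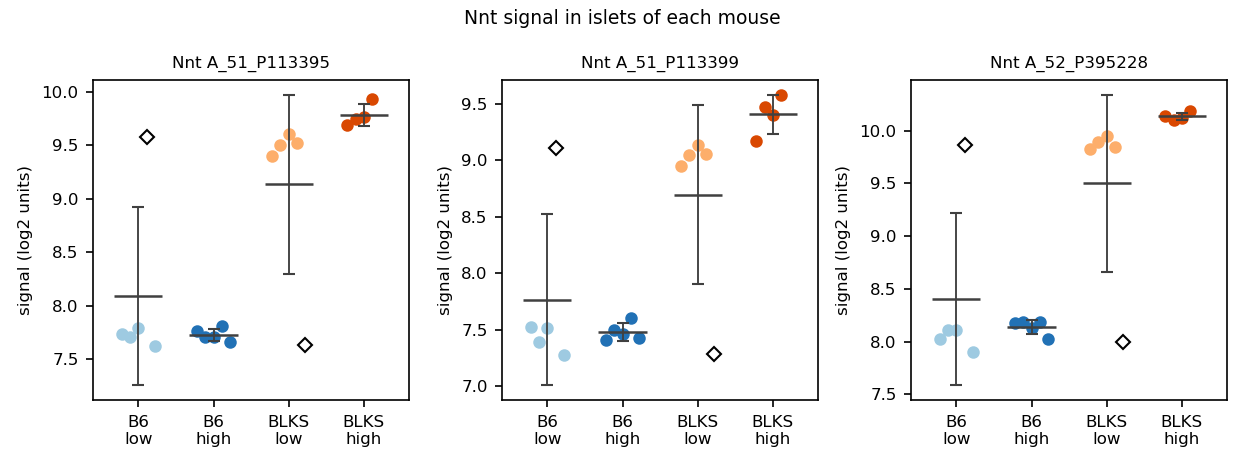
Signal of the 3 Nnt probes (log2 units) in each of the 19 mice by strain and glucose, with the mean and SD of each group as a bar. Open diamonds mark B6 low glucose 4 and BLKS low glucose 5 as labelled, which lie with the other strain at all 3 probes.

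In high glucose the Nnt signal of BLKS islets exceeded that of B6 islets by 2.057, 1.928 and 1.999 on the log2 scale (SE 0.374, 0.349 and 0.369; 4.16-fold, 3.80-fold and 3.997-fold; limma adjusted p = 0.00307, 0.00300 and 0.00345) at A_51_P113395, A_51_P113399 and A_52_P395228. By size these differences ranked 8, 10 and 9 among the 29326 probes tested. A two-sided exact permutation test gave p = 0.00794 for each, the smallest that 126 divisions of 5 and 4 mice allow. BLKS exceeded B6 in 4 of 4 array pairs, and all 3 probes passed the test in 19 of 19 fits that left out 1 mouse. The standard errors come from a spread shared by all 4 groups and so hold both libraries that stand apart: without them, the differences were the same and the standard errors 0.05, 0.07 and 0.05. Between strains in low glucose, the labels as given gave differences of 1.05, 0.93 and 1.10 that did not pass the test (limma adjusted p = 0.167, 0.181 and 0.156). Without both libraries they were 1.79, 1.62 and 1.84 and passed it (adjusted p at most 1.27e-10). Neither array pair that held one of these libraries showed a strain difference at Nnt in low glucose: at A_51_P113395, pair 4 differed by -0.06 and pair 5 by 0.01, against 1.67, 1.80 and 1.82 in pairs 1 to 3.

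Nnt showed no glucose response that passed the test under the labels as given, with -0.36, -0.28 and -0.27 in B6 and 0.65, 0.71 and 0.64 in BLKS islets. Leaving out both libraries turned the direction in B6, to 0.01, 0.05 and 0.10, still without passing the test. In BLKS islets the response was then 0.28, 0.36 and 0.26 and passed it (limma adjusted p = 0.00327, 0.00489 and 0.00238). The lowest BLKS high-glucose mouse was then above the highest BLKS low-glucose mouse at each probe. No difference between the responses of the strains passed the test at Nnt, with or without both libraries. Since the position of the 3 probes within the Nnt transcript was not analysed here, the signal of B6 mice cannot be assigned to a part of the gene. A pair of probes named 4930423F13Rik, a RefSeq synonym of Nnt, were dim in all groups and differed by 0.04 and 0.03 between strains in high glucose (adjusted p = 0.877 and 0.7).

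Other antioxidant and glutathione genes differed between the strains in high glucose, by less than Nnt and in both directions. Of the 71 probes, Nnt included, 16 (22.5%) passed the test, against 11.1% of all tested probes. Of these, 9 were higher, the 3 Nnt probes among them, and 7 lower in BLKS islets, for 11 genes with Nnt. The median size of the difference was 0.10 on the log2 scale, against 0.06 over all probes. The groups did not overlap at 18 probes (25.4%), the 3 Nnt probes among them, against 14.4% of all probes. Without scaling between arrays the count was 9, with 4 higher and 5 lower, against 5.36% of all probes. By role, 3 of 5 probes for NADPH supply passed the test, all of them Nnt, 7 of 20 for glutathione S-transferases, 3 of 9 for thioredoxins and their reductases, 2 of 7 for NRF2, KEAP1 and inducible enzymes and 1 of 11 for peroxiredoxins. None of the 6 glutathione peroxidase, 7 glutathione synthesis and reduction, 4 superoxide dismutase and catalase or 2 glutaredoxin probes did.

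**Figure D2:**
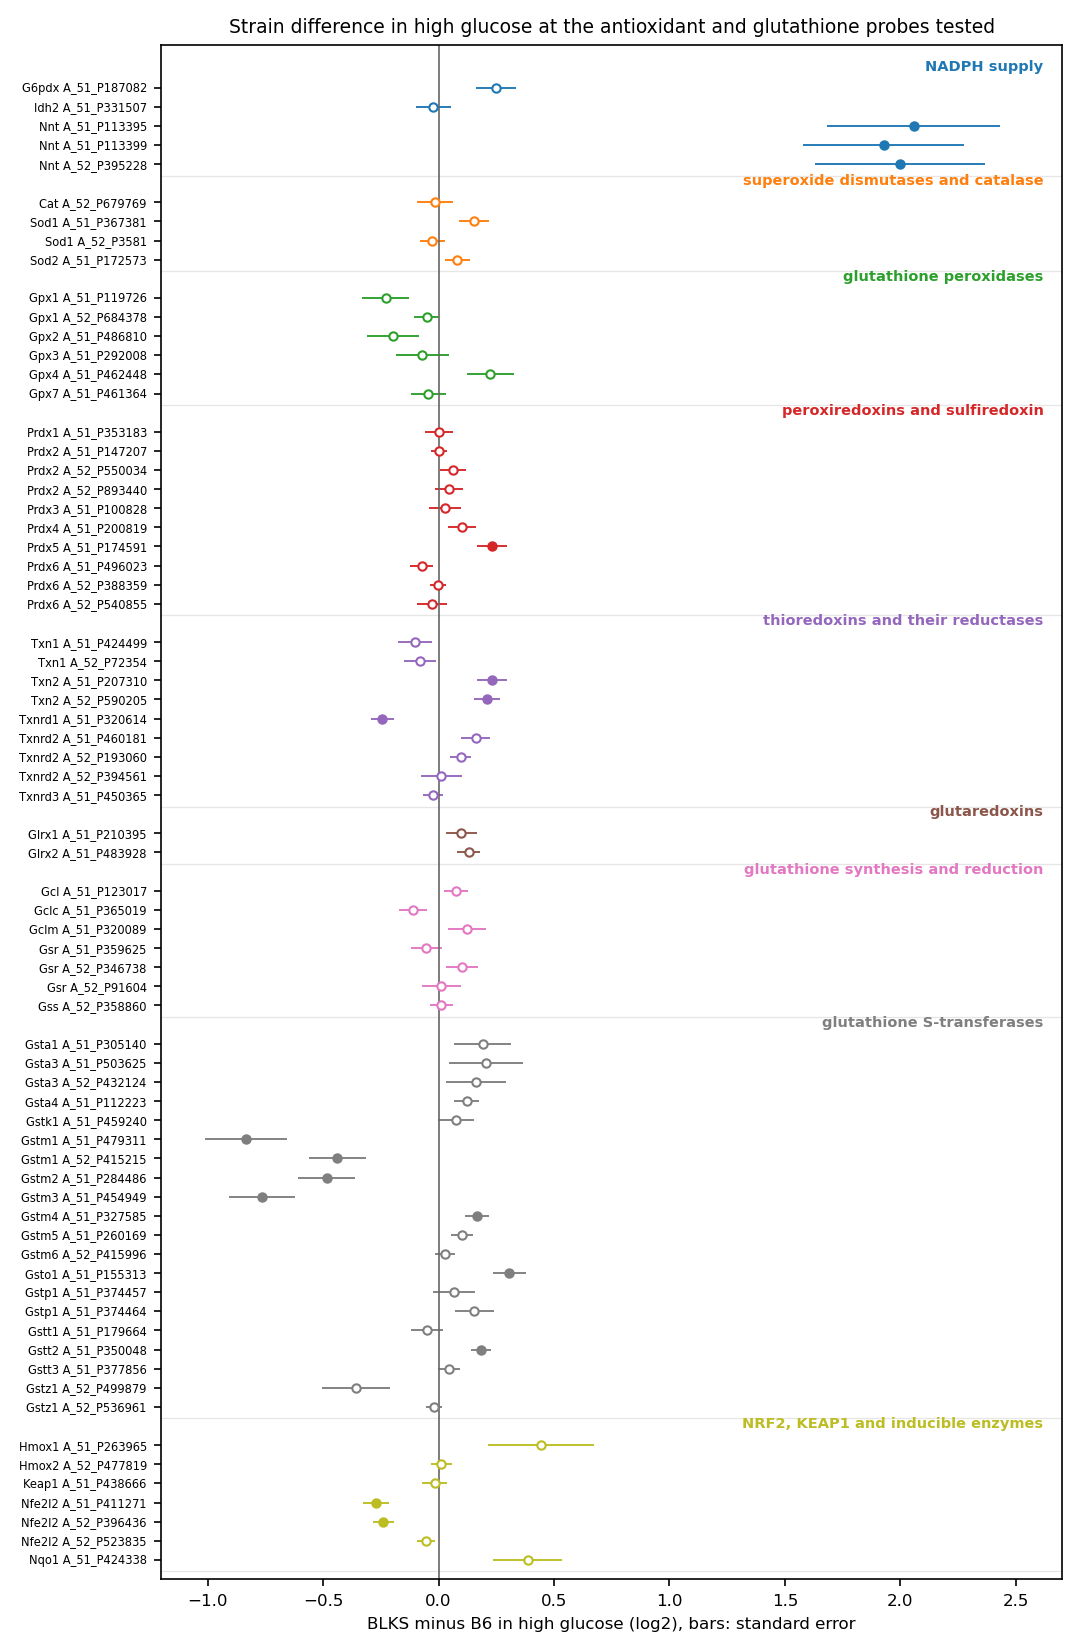
BLKS minus B6 in high glucose (log2, with standard error) at 70 of the 71 tested probes, grouped by role. Filled points are the 16 probes that passed the test at an adjusted p of 0.05; the 3 Nnt probes lie near 2 and the Gstm1, Gstm2 and Gstm3 probes on the left, while most other probes lie close to 0.

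The largest differences after Nnt were in the mu class of glutathione S-transferases, enzymes that couple glutathione to reactive compounds. Gstm1, Gstm2 and Gstm3, neighbours on chromosome 3, were lower in BLKS islets. Gstm1 (A_51_P479311) read 12.48, 12.43, 12.70, 12.83 and 12.54 in B6 and 11.62, 11.29, 12.18 and 11.97 in BLKS islets in high glucose. No BLKS mouse reached the lowest B6 mouse, and the difference was -0.83 (SE 0.179; 1.78-fold; limma adjusted p = 0.00758). Gstm3 read 11.86, 11.89, 12.03, 12.18 and 11.85 in B6 and 11.06, 10.86, 11.56 and 11.33 in BLKS islets. Here too the groups did not overlap, at a difference of -0.76 (SE 0.142; 1.70-fold; adjusted p = 0.00366). Gstm2 read 9.38, 9.38, 9.49, 9.39 and 9.33 in B6 and 8.89, 8.71, 9.19 and 8.84 in BLKS islets. Its groups did not overlap either, with a difference of -0.48 (SE 0.123; adjusted p = 0.017). At the second Gstm1 probe, A_52_P415215, the difference was smaller, -0.44 (SE 0.124; adjusted p = 0.0284), and BLKS high glucose 3, at 8.72, lay above the lowest B6 mouse, at 8.66. At all 4 probes islets labelled BLKS were lower in 4 of 4 pairs in high glucose and in 5 of 5 pairs in low glucose. The latter include pairs 4 and 5, which each hold a library that stands apart. At the 103 probes both libraries of pair 4 lay near the BLKS mean (1.02 and 1.01). Both of pair 5 lay near the B6 mean (-0.04 and -0.06), so neither pair sets B6-like against BLKS-like islets. At Gstm1 A_51_P479311 pairs 4 and 5 differed by -0.31 and -0.14, against -0.05, -0.44 and -0.53 in pairs 1 to 3. At Gstm3 they differed by -0.35 and -0.26, against -0.18, -0.35 and -0.51. The low-glucose pairs thus had the same direction by label whether or not they held such a library. Within the labelled groups, however, B6 low glucose 4 was the lowest B6 low-glucose mouse at all 4 probes. BLKS low glucose 5 was the highest BLKS low-glucose mouse at all of them but Gstm2. At Gstm3 these libraries read 12.08 and 12.36. BLKS high glucose 3 was the highest BLKS mouse in high glucose at each of the 4 probes. These genes have similar coding sequences, and probes of the array may share signal between them.

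The family did not move as a block. Gstm4 was higher in BLKS islets by 0.17 (SE 0.0529; adjusted p = 0.0478), a call kept in 5 of 19 fits without 1 mouse. Its groups overlapped, since BLKS high glucose 1 read 7.67 and B6 high glucose 5 read 7.68. Gstm5, at 0.10, and Gstm6, at 0.03, did not pass the test.

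**Figure D3:**
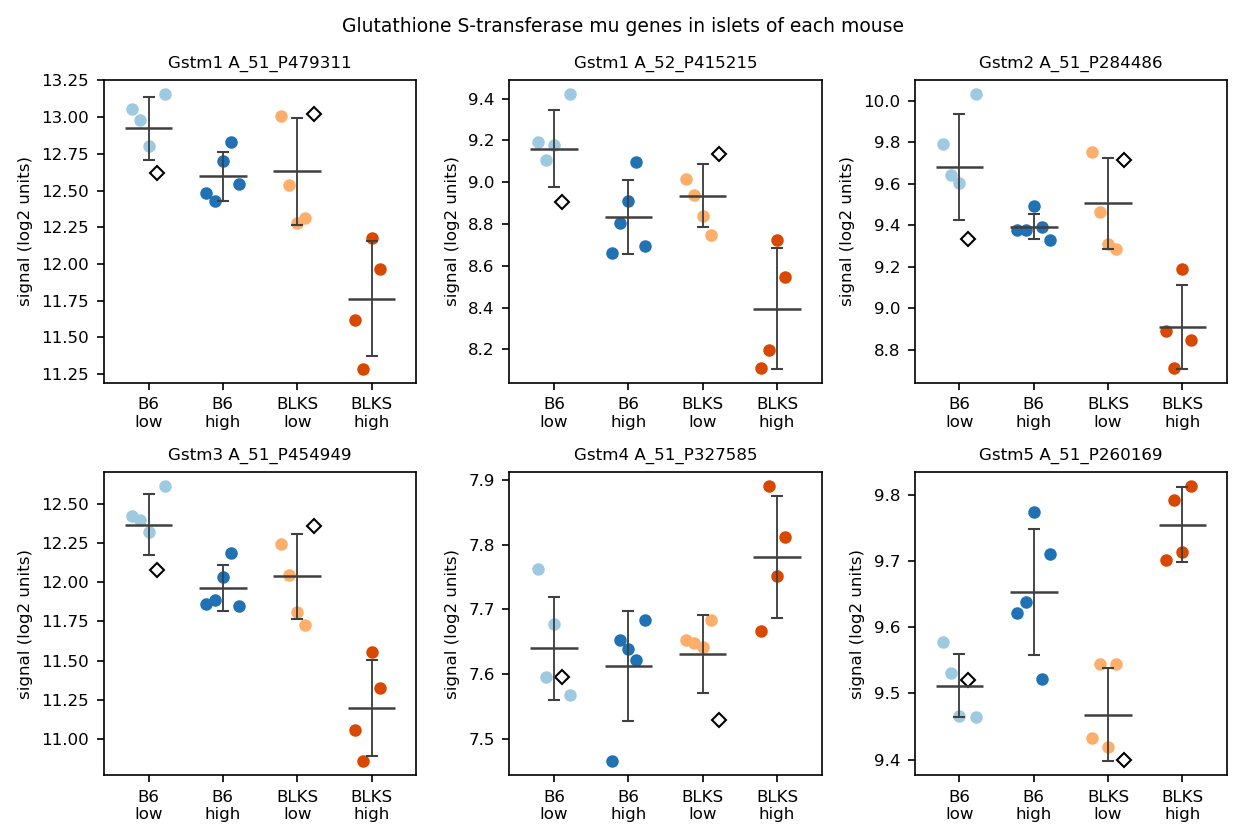
Signal of the Gstm1, Gstm2, Gstm3, Gstm4 and Gstm5 probes (log2 units) in each mouse by strain and glucose, with the mean and SD of each group. The BLKS high-glucose mice are lowest at Gstm1 A_51_P479311, Gstm2 and Gstm3, and not at Gstm4 or Gstm5. At Gstm1 A_52_P415215, BLKS high glucose 3 overlaps the B6 high-glucose mice. Open diamonds mark B6 low glucose 4 and BLKS low glucose 5.

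Because Gstm1, Gstm2 and Gstm3 moved together, the 250 bases before their annotated starts are shown beside those of Gstm5, which did not move with them (RefSeq, GRCm38.p6, each written 5′ to 3′ on the strand of the gene). The windows are chr3:108017819-108018068 on the minus strand for the more downstream of 2 starts of Gstm1, chr3:107986421-107986670 (minus) for Gstm2, chr3:107969175-107969424 (minus) for Gstm3 and chr3:107895604-107895853 (plus) for Gstm5. Capitals mark the core of the antioxidant response element, the motif that NRF2 binds with small MAF proteins, spelled TGACNNNGC and searched on both strands.
Gstm1: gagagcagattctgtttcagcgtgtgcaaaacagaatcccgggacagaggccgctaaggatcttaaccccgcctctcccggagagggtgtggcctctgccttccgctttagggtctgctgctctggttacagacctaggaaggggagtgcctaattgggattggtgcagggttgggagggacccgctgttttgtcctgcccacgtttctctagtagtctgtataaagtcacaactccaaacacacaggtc
Gstm2: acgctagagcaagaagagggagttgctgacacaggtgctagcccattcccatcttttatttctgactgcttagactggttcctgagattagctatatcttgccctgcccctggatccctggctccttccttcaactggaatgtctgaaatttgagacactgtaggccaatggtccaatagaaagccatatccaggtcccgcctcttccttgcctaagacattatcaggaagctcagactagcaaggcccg
Gstm3: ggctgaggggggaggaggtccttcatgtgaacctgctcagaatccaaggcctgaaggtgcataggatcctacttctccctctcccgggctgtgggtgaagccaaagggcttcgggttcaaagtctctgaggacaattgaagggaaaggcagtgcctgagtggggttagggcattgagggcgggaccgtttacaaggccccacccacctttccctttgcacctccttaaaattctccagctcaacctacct
Gstm5: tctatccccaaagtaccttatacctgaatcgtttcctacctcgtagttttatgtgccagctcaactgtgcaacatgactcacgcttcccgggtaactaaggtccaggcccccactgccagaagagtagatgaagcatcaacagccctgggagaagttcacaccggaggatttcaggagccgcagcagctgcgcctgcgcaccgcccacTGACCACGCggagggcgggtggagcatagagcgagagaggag
The letters of this core are in the Gstm5 window alone of the 4, its first base 42 bases before the start. The windows of Gstm4 and Gstm6, not shown, lacked it too. Gstm4 was higher in BLKS islets, and the dim Gstm6 did not pass the test. Whether the core bears on these differences was not tested. Among 46 of the chosen genes with a window in the RefSeq table, 8 (17.4%) held the core, against 11.5% of all 27025 genes. These were G6pdx, Gclm, Gsta3, Gstm5, Nfe2l2, Prdx1, Sod1 and Txnrd1. Of these 8, Nfe2l2 and Txnrd1 differed between strains in high glucose under the labels as given, against 11 of the 51 genes tested. Txnrd1 has several annotated starts, and not each of its windows held the core. A match describes the letters of a window and is no evidence of binding.

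Nfe2l2, the gene of NRF2 itself, was lower in BLKS islets in high glucose at its 2 bright probes. A_51_P411271 read 9.83, 9.58, 9.63, 9.70 and 9.58 in B6 and 9.40, 9.30, 9.47 and 9.40 in BLKS islets. No BLKS mouse reached a B6 mouse, and the difference was -0.27 (SE 0.0566; adjusted p = 0.00674). A_52_P396436 gave -0.24 (SE 0.0441; adjusted p = 0.00345), and the dim probe A_52_P523835 gave -0.06, which did not pass the test. Keap1, whose product retains NRF2 in the cytosol, gave -0.02. Among enzymes that NRF2 is known to induce, Hmox1, which breaks down heme, gave 0.45 and Nqo1, a quinone reductase, 0.39, neither passing the test (adjusted p = 0.256 and 0.105). The Nqo1 groups did not overlap in high glucose, at 7.13, 7.27, 7.35, 7.31 and 7.06 in B6 and 7.64, 7.38, 7.64 and 7.78 in BLKS islets, and without both libraries the same difference passed the test (adjusted p = 0.00858). Hmox2, the constitutive heme oxygenase, gave 0.01.

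Thioredoxin 2 (Txn2), the mitochondrial thioredoxin, was higher in BLKS islets. A_51_P207310 read 10.12, 10.16, 10.20, 10.005 and 10.14 in B6 and 10.44, 10.29, 10.30 and 10.40 in BLKS islets in high glucose. The groups did not overlap, and the difference was 0.23 (SE 0.0668; adjusted p = 0.0318), with 0.21 (SE 0.0555; adjusted p = 0.0205) at the second probe, A_52_P590205. At both probes Txn2 was higher in islets labelled BLKS in 4 of 4 pairs in high glucose and in 5 of 5 pairs in low glucose. Pairs 4 and 5 in low glucose, in each of which both libraries lay near the same strain at the 103 probes, had the same direction as pairs 1 to 3. At A_51_P207310 they differed by 0.15 and 0.18, against 0.21, 0.08 and 0.28 in pairs 1 to 3. Prdx5, a peroxiredoxin found in mitochondria and peroxisomes, was higher by 0.23 (SE 0.0655; adjusted p = 0.0283). Txnrd1, the cytosolic thioredoxin reductase, read 11.17, 11.10, 11.06, 11.07 and 11.10 in B6 and 10.81, 10.94, 10.84 and 10.84 in BLKS islets. It was thus lower in every BLKS mouse, by -0.24 (SE 0.0501; adjusted p = 0.00635). Txn1, the cytosolic thioredoxin, gave -0.10 and -0.08 at its probes and Txnrd2, the mitochondrial reductase, 0.01, 0.16 and 0.10, none passing the test. Outside the mu class, Gsto1, which also reduces dehydroascorbate, was higher by 0.31 (SE 0.0701; adjusted p = 0.00999) and Gstt2 by 0.18 (SE 0.0434; adjusted p = 0.0113), in both cases without overlap.

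Of the other brightest probes, those of Sod1 (cytosolic superoxide dismutase, 0.15), Sod2 (its mitochondrial counterpart, 0.08), catalase (Cat, -0.01), Gpx1 (-0.05 and -0.23), Gpx2 (-0.20), Gpx4 (which reduces lipid peroxides, 0.22), Glrx1 (0.10) and Glrx2 (0.13) did not pass the test in high glucose. Nor did Prdx1 (0.00), Prdx2 (0.00, 0.05 and 0.06), Prdx6 (-0.07, -0.03 and 0.00), Gstp1 (0.07 and 0.16), the glutathione reductase Gsr (-0.05, 0.01 and 0.10) or the subunits of the enzyme that starts glutathione synthesis, Gclc (-0.11) and Gclm (0.12). Idh2, another source of mitochondrial NADPH, gave -0.02, and G6pdx, which makes NADPH in the cytosol, gave 0.25 without overlap (adjusted p = 0.0741). Without both libraries, G6pdx (adjusted p = 0.00629) and Gstz1 A_52_P499879, at -0.36 (adjusted p = 0.00287), passed the test as well as Nqo1, for 19 probes in all (26.8%, against 15.3% of all probes).

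Markers of some other cells moved with strain in high glucose, 4 of 6 for fibroblasts, 2 of 5 for endothelial cells and 2 of 8 tested for macrophages passing the test, all lower in BLKS islets. Of 8 tested acinar markers 1 passed it, Ela1, which was higher in BLKS islets by 0.74 (limma adjusted p = 0.0141), and the acinar median was 0.23. The summed signal of 6 fibroblast markers was from 11.67 to 12.74 (log2) in B6 and from 10.46 to 11.61 in BLKS mice, that of 5 endothelial markers from 9.53 to 9.79 and from 9.32 to 9.44, and that of 9 macrophage markers from 11.66 to 12.10 and from 11.38 to 11.58. The macrophage sum rests on the bright Lyzs (-0.76) and C1qa (-0.37), while Cd68 (0.12), Csf1r (0.07) and Cd14 (0.08) did not pass the test and the median of the list was 0.00. Mesothelial signal, which rests on Msln alone, was from 10.38 to 10.76 in B6 and from 8.42 to 9.004 in BLKS mice. None of these ranges overlapped. Of the endocrine markers, Ins1, Ins2, Iapp and Gcg were saturated in all 40 channels and have only a bound. Slc2a2, the glucose transporter of beta cells, was lower in BLKS islets by -0.59 (adjusted p = 0.00928), whereas the dim beta cell factor Mafa (-0.07) did not pass the test. Their part in the differences of Gstm1, Gstm2, Gstm3 and the other genes above was not tested, and in whole islets fewer cells of a type cannot be told apart from less RNA per cell.

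In low glucose none of the 71 probes passed the test between the strains under the labels as given, as none of all 29326 tested did (0.0%). Without both libraries, 22 probes of 16 genes passed it (31.0%, against 15.6% of all probes), 18 higher and 4 lower in BLKS islets. Leaving out B6 low glucose 4 alone gave 9 probes (against 9.16% of all probes) and BLKS low glucose 5 alone 12 (against 8.1%). With all mice kept and array pairs entered as a random block, the count was 18, against 16.1% of all probes, and with the pair as a fixed block 7, against 8.04%.

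**Figure D4:**
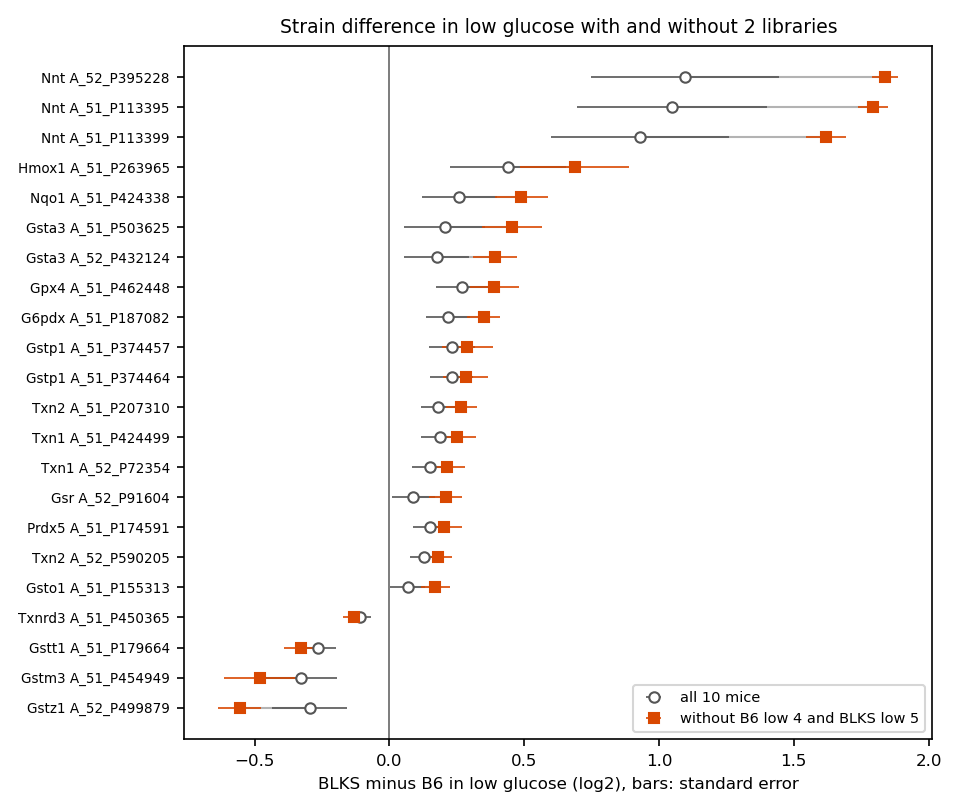
BLKS minus B6 in low glucose (log2, with standard error) at the 22 probes that passed the test without 2 libraries. Open circles are from all 10 low-glucose mice and squares leave out the B6 mouse 4 and the BLKS mouse 5 of that condition; the squares lie farther from 0 and their standard errors at Nnt are much smaller.

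By role, these were 4 of 5 probes for NADPH supply, 5 of 9 for thioredoxins and their reductases, 8 of 20 for glutathione S-transferases, 2 of 7 for NRF2, KEAP1 and inducible enzymes, and 1 each for glutathione peroxidases, glutathione reductase and peroxiredoxins. Hmox1 read 9.86, 9.90, 9.55 and 9.80 in the 4 remaining B6 mice and 10.05, 10.39, 10.60 and 10.82 in the 4 remaining BLKS mice. The groups did not overlap, and the difference was 0.69 (SE 0.203; adjusted p = 0.0276), against 0.44 (adjusted p = 0.328) with all mice. Nqo1 read 7.33, 7.22, 7.03 and 7.11 in B6 and 7.89, 7.74, 7.59 and 7.43 in BLKS islets, at a difference of 0.49 (SE 0.0993; adjusted p = 0.00211). B6 low glucose 4 read 7.62 and BLKS low glucose 5 read 6.96 at Nqo1, again the reverse of their labels. G6pdx was higher in BLKS islets by 0.35, Gpx4 by 0.39, Gsr (A_52_P91604) by 0.21, Prdx5 by 0.20, Gsto1 by 0.17, and the probes of Txn1 by 0.25 and 0.21, of Txn2 by 0.27 and 0.18, of Gstp1 by 0.29 and 0.28 and of the dim Gsta3 by 0.46 and 0.39. Lower in BLKS islets were Gstz1 (A_52_P499879), of tyrosine breakdown, by -0.56, Gstm3 by -0.48, Gstt1 by -0.33 and Txnrd3 by -0.13, the last just past the threshold (adjusted p = 0.04997). Gstm1 and Gstm2 did not pass the test in low glucose, in either set of mice. Gstt1 was the 1 probe of 71 whose groups did not overlap with all 10 mice, at 7.07 to 7.40 in B6 and 6.87 to 7.05 in BLKS islets, and its adjusted p was 0.123. The groups did not overlap at 1.2% of all probes.

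Markers of other cells moved in low glucose too when both libraries were left out. Endothelial Cdh5 (-0.26), Kdr (-0.43) and Esam1 (-0.30), macrophage Lyzs (-0.58), C1qa (-0.46) and Fcgr1 (-0.14) and mesothelial Msln (-2.18) were lower in BLKS islets, and macrophage Cd14 (0.44) and acinar Ela1 (0.76) were higher. None of the 6 fibroblast markers passed the test. The summed endothelial signal was from 9.67 to 9.90 in the remaining B6 and from 9.42 to 9.69 in the remaining BLKS mice, that of the fibroblast markers from 11.15 to 11.91 and from 10.86 to 11.36, and that of the macrophage markers from 12.07 to 12.34 and from 11.61 to 11.81. Only the macrophage sums of these did not overlap. The part of these markers in the low-glucose differences was not tested.

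Over both glucose conditions, 21 probes of 16 genes passed the test between strains (29.6%, against 18.7% of all probes), 13 higher and 8 lower in BLKS islets. Beside the genes that differed in high glucose, these included Nqo1 (0.32), Gpx4 (0.25), G6pdx (0.23), Gstp1 A_51_P374464 (0.19), Sod1 A_51_P367381 (0.16), Gstz1 A_52_P499879 (-0.33) and Gstt1 (-0.16). The dim probes Sod1 A_52_P3581 and Gstz1 A_52_P536961 did not pass the test. Their array pairs in high glucose differed by -0.04 to 0.02 and by -0.12 to 0.06. Nnt stood at 1.55, 1.43 and 1.55, the 4 probes of Gstm1, Gstm2 and Gstm3 between -0.56 and -0.33, and Gsto1, Gstt2, Prdx5, Txn2 and Nfe2l2 kept the direction of the high-glucose comparison. Gstm4 and Txnrd1 were called in high glucose and did not pass the test over both. Without both libraries 28 probes passed it (39.4%, against 25.8%), adding Hmox1 (0.57), both Gsta3 probes (0.33 and 0.28) and 1 probe each of Gsta4, Glrx2, Gsr and Txnrd2, with none lost. Nqo1 kept its call in 8 of 19 fits without 1 mouse, Gstz1 in 11 and Gstt1 in 13.

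Many of these genes responded to glucose. In B6 islets 16 of 71 probes passed the test (22.5%, against 9.53% of all probes), 10 higher and 6 lower in high glucose, and in BLKS islets 26 did (36.6%, against 11.6% of all probes), 15 higher and 11 lower. Without scaling between arrays the counts were 10 (3 higher and 7 lower, against 5.47% of all probes) in B6 and 16 (6 higher and 10 lower, against 7.33%) in BLKS islets. Leaving out BLKS high glucose 4 alone gave 17 in BLKS islets, 8 higher and 9 lower, against 7.95% of all probes. In all, 12 probes passed the test in both strains, all in the same direction, and no probe was called in opposite directions. Without both libraries the counts were 21 (29.6%, against 12.2%) and 25 (35.2%, against 9.9%).

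**Figure D5:**
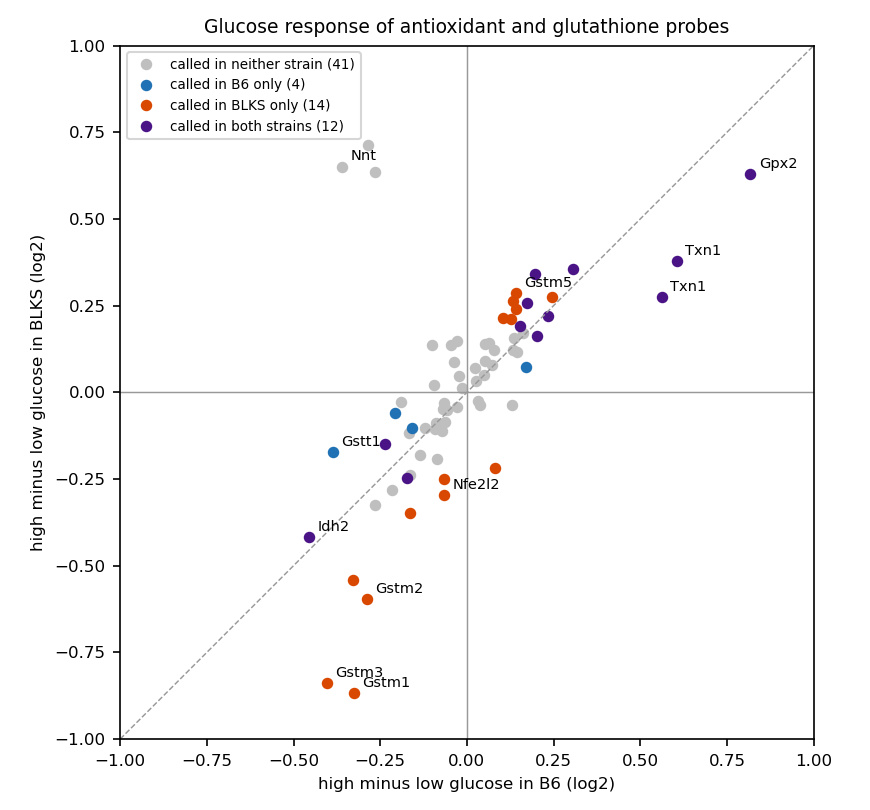
Glucose response (high minus low glucose, log2) of each tested probe in B6 islets (horizontal) against BLKS islets (vertical), marked by the strain in which it passed the test: neither (41 probes), B6 alone (4), BLKS alone (14) or both (12). Gpx2 and Txn1 lie at the upper right, Idh2 at the lower left, and Gstm1 and Gstm3 lowest in BLKS islets.

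Gpx2, a glutathione peroxidase best known from the gut lining, had the largest rise. It read 10.81, 10.84, 10.69, 10.40 and 10.53 in B6 islets in low glucose and 11.45, 11.40, 11.46, 11.42 and 11.63 in high glucose. In BLKS islets it read 10.79, 10.33, 10.58, 10.73 and 10.80 in low and 11.40, 11.29, 10.95 and 11.46 in high glucose. Low and high glucose did not overlap in either strain, and Gpx2 rose by 0.82 in B6 (SE 0.105; 1.76-fold; adjusted p = 6.79e-05) and by 0.63 in BLKS islets (SE 0.111; 1.55-fold; adjusted p = 0.000971). The B6 response ranked 36 by size among all 29326 probes. Gpx1, the common cytosolic form, fell in both strains at A_52_P684378 (-0.17 and -0.25) and in BLKS islets at A_51_P119726 (-0.35, against -0.17 in B6). Without both libraries the B6 fall of A_52_P684378 (-0.16, adjusted p = 0.0627) and the BLKS fall of A_51_P119726 (-0.35, adjusted p = 0.0615) lost their calls, and the fall of A_52_P684378 in BLKS islets kept its own. Gpx4 (-0.13 and -0.18), Gpx3 and Gpx7 did not pass the test.

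The thioredoxins rose with glucose. Txn1 A_52_P72354 read 9.75, 9.79, 9.61, 9.73 and 9.54 in low and 10.36, 10.31, 10.28, 10.18 and 10.32 in high glucose in B6 islets. Every high-glucose mouse was above every low-glucose mouse, with a rise of 0.61 (SE 0.0659; adjusted p = 1.75e-05), and in BLKS islets the rise was 0.38 (SE 0.0699; adjusted p = 0.00143). The other Txn1 probe, A_51_P424499, rose by 0.56 in B6 and 0.27 in BLKS islets, the latter losing its call without both libraries (0.23, adjusted p = 0.0517). Both Txn2 probes rose in both strains, by 0.31 and 0.17 in B6 and 0.36 and 0.26 in BLKS islets. Their reductases differed. Txnrd3 fell in both strains (-0.24 and -0.15), the cytosolic Txnrd1 fell in BLKS islets alone (-0.22, adjusted p = 0.00759, against 0.08 in B6), and 1 of 3 Txnrd2 probes rose in BLKS islets (0.22), a call lost without both libraries (0.20, adjusted p = 0.0615).

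Peroxiredoxins, most of which use thioredoxin to reduce peroxides, moved upward where they moved at all. In B6 islets 4 of 11 probes rose and in BLKS islets 6 of 11, and none fell. Prdx2 A_51_P147207 rose by 0.15 and 0.19 in B6 and BLKS islets and Prdx2 A_52_P893440 by 0.20 and 0.34. The third Prdx2 probe (0.26), Prdx1 (0.24) and Prdx5 (0.21) passed the test in BLKS islets, and Prdx6 A_51_P496023 in B6 islets (0.17). Without both libraries the Prdx5 response (0.17, adjusted p = 0.115) and the B6 response of Prdx2 A_52_P893440 (0.20, adjusted p = 0.0523) lost their calls, and Prdx3 gained one in B6 islets (0.16, adjusted p = 0.04999). Sod1 rose by 0.23 in B6 and 0.22 in BLKS islets, the latter losing its call without both libraries (0.21, adjusted p = 0.0598). The other tested Sod1 probe, Sod2 (0.05 and 0.05) and catalase (-0.12 and -0.10) did not pass the test.

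Idh2, which makes NADPH in mitochondria as Nnt does, fell in both strains. It read 9.02, 9.04, 9.04, 8.83 and 9.01 in low and 8.45, 8.54, 8.54, 8.67 and 8.48 in high glucose in B6 islets, and 8.93, 8.93, 9.02, 8.76 and 9.01 against 8.4, 8.39, 8.78 and 8.48 in BLKS islets. The groups did not overlap in B6, and in BLKS islets high glucose 3 lay just above low glucose 4. The fall was -0.45 in B6 (SE 0.0700; adjusted p = 0.000375) and -0.42 in BLKS islets (SE 0.0742; adjusted p = 0.000997), and its strain difference in high glucose was -0.02. G6pdx rose by 0.28 in BLKS islets (adjusted p = 0.0458) and gave 0.25 in B6 islets (adjusted p = 0.0676). Without both libraries the B6 response passed the test at 0.30 and the BLKS response did not, at 0.20 (adjusted p = 0.051).

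Gstm1, Gstm2 and Gstm3 fell with glucose in BLKS islets, by -0.87 and -0.54 at the Gstm1 probes, -0.60 at Gstm2 and -0.84 at Gstm3 (adjusted p = 0.0034, 0.00715, 0.00342 and 0.000712), and low and high glucose did not overlap at any of them. The Gstm1 A_51_P479311 response ranked 35 by size among all probes. In B6 islets the same probes gave -0.33, -0.33, -0.29 and -0.40 under the labels as given, without passing the test. Without both libraries, Gstm1 A_52_P415215 (-0.39), Gstm2 (-0.37) and Gstm3 (-0.48) passed it in B6 islets too, as did Gstk1 (-0.23) and Gstz1 (-0.39), and no difference between the responses of the strains passed it at any of the 4 probes. Gsr fell in BLKS islets at 2 of its 3 probes without both libraries (-0.26 and -0.32) and at none with all mice. Gstm5 rose by 0.29 in BLKS islets (adjusted p = 0.000619) and gave 0.14 in B6 islets. Nfe2l2 fell in BLKS islets by -0.30 and -0.25 at its 2 bright probes (adjusted p = 0.00183 and 0.000979) and gave -0.07 at both in B6 islets. Gstt1 (-0.39), Gstt2 (-0.21) and Hmox2 (-0.16) fell in B6 islets and gave -0.17, -0.06 and -0.10 in BLKS islets.

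The difference between the glucose responses of the strains was itself tested and passed for none of the 71 probes, against 0.0409% of all probes, and for none without both libraries, against 0.058%. With array pairs entered as a random block, and in no other fit but the one on single dye values, 1 probe passed it: Txnrd1, at -0.30 (limma adjusted p = 0.00796), against 0.805% of all probes. It read 11.08, 10.95, 10.91, 11.12 and 11.04 in low glucose in B6 and 11.18, 11.02, 11.06, 11.16 and 10.96 in BLKS islets, so that the strains overlapped in low glucose and separated in high glucose. A call in a single strain, as for Nfe2l2 or the Gstm probes, is thus not shown to be a difference between strains. Both glucose responses and both strain differences share groups and are not independent.

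Among markers, the summed signal of 8 acinar markers was from 11.04 to 11.39 in low and from 10.90 to 11.06 in high glucose in B6 mice, and from 11.24 to 11.54 and from 10.98 to 11.28 in BLKS mice. That of the fibroblast markers was from 11.05 to 11.91 and from 11.67 to 12.74 in B6 mice. The beta cell marker Slc2a2 fell with glucose in BLKS islets by -0.74 (adjusted p = 0.0011) and gave -0.40 in B6 islets (adjusted p = 0.0529; 0.0473 without both libraries). The part of these markers in the glucose responses was not tested.

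Other genes of the same pathways, from lists chosen with earlier results of these data known, were read from the same fit, each by its brightest probe. The shares of all probes given beside them take in dimmer probes too, so the sets are not alike. Among further targets of NRF2, 7 of 23 tested genes passed the test between strains in high glucose, against 11.1% of all probes. Cbr1, a carbonyl reductase, was higher in BLKS islets by 0.80 (adjusted p = 0.00125) and the ferritin light chain Ftl1 by 0.34, while Cbr3 (-0.99), Aox1 (-0.56), the ferritin heavy chain Fth1 (-0.51), Ephx1 (-0.20) and Esd (-0.17) were lower. Their median difference was -0.03. Of 11 further NADPH and one-carbon enzymes, Pgls of the pentose phosphate pathway passed the test (0.21). Of 8 genes of glutathione turnover, the peptidase Anpep did (-0.51), and of 9 thioredoxin partners and methionine sulfoxide reductases, Ero1l (0.81), Sepx1 (0.21) and Txnip (-1.09) did. In low glucose no gene of these lists passed the test under the labels as given. Without both libraries 10 of the 23 NRF2 targets, 5 of the 11 NADPH enzymes, 1 of the 8 turnover genes and 5 of the 9 thioredoxin partners did, against 15.6% of all probes. In response to glucose, 7 of the 9 thioredoxin partners passed the test in B6 (against 9.53% of all probes) and 6 in BLKS islets (against 11.6%). Txnip, which binds and inhibits thioredoxin, rose by 2.13 in B6 (adjusted p = 3.72e-05) and by 1.74 in BLKS islets (adjusted p = 0.000355). Ero1l, Sepx1, Txndc4 and Txndc5 rose and Sepw1 fell in both strains, and Selk rose in B6 islets. Without both libraries Txndc5 lost its call in B6 islets (adjusted p = 0.0613) and Ero1l in BLKS islets (adjusted p = 0.0806). Of the 23 NRF2 targets, 2 passed it in B6 (8.7%) and 3 in BLKS islets, close to the shares of all probes.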

How the data were processed

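Islet RNA of 19 mice was read on 20 arrays in 2 colours. Per the file headers, the deposited intensities are processed signals from Agilent Feature Extraction 9.5.3.1 (the submitters' processing notes name version 8.1), normalized between the dyes of each array and not background-subtracted. The authors also deposited a table of log2 values, checked to be the log2 of mean spot signals averaged over dyes, without scaling between arrays, and used as an alternative. No column of per-sample values was left unmapped.

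Processed intensities were converted to log2, outlier and control spots were left out, arrays were scaled (Aquantile in limma 3.58.1), and spots of a probe and dyes of a mouse were averaged. A probe was tested where 4 or more mice gave a signal well above background in each of their channels (29326 of 41174 probes). In Cy3 the software gave that call to a median of 83.9% of negative controls, against 0.318% in Cy5, so the filter rests largely on Cy5. Median spot signals per array were 72.1 to 94.3 in Cy5, against 49.1 to 53.4 for negative controls. The fit had a mean for each of 4 groups and moderated variances in R 4.3.3 with the data.table package (1.17.8), and p-values were adjusted over all tested probes (Benjamini-Hochberg) and called at 0.05. It was tested on simulated data. Adjusted p-values are from limma; exact tests are two-sided permutation tests over mice. Mice were numbered per group and taken as separate animals from the labels; the mouse labelled B6 low glucose 1 is on 4 arrays and was counted once.

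The genes, lists, rules and alternatives were chosen with earlier results of these data known. Cell type markers and the genes of other pathway lists were each read from their brightest probe. Named were all Nnt probes, each chosen probe called in a comparison, all tested probes of such a gene, and the 3 brightest per role; where over 25 probes were called, the largest are given with values and the rest by count. Same-numbered mice of a glucose condition shared an array pair, and their deviations from group means correlated at 0.02 to 0.694 (median 0.482), while other pairs between strains had a median of -0.167, so the pair was used as a block among the alternatives. Accessions of 68 of 79 probes were in the RefSeq table. Sequences shared by paralogs make Gsta1 with Gsta2 and Gstp1 with Gstp2 uncertain, since their probes list accessions of both. Values of 1 chosen gene, 1 gene near Nnt and 1 marker are not reported here, though counts include them. Windows of 250 bases before RefSeq starts (GRCm38.p6) were searched for motifs. Python 3.11.15, numpy 2.4.6, pandas 2.3.3, scipy 1.17.1 and matplotlib 3.10.9 made summaries and plots.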

Additional observations from a re-analysis of the deposited data

Results flagged for a closer look

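Within groups of 4 or 5 mice, 1 mouse lay unusually far from the rest, by its gap relative to the range of the group, in 20 of 156 sets of a named probe and a group. Chance marks about 1 in 20 such sets. Of the 20, 11 were at B6 low glucose 4 or BLKS low glucose 5, as labelled.

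For Nnt these gaps were 0.914, 0.866 and 0.894 of the range at B6 low glucose 4, the highest of its group, and 0.895, 0.897 and 0.936 at BLKS low glucose 5, the lowest of its group (A_51_P113395, A_51_P113399 and A_52_P395228). BLKS low glucose 5 was also the lowest of its group at G6pdx (0.777), Txn1 A_52_P72354 (0.75) and Gstm4 (0.731) and the highest at Gstz1 (0.716). B6 low glucose 4 was the lowest at Idh2 (0.856), with a signal of 8.83 against 9.01 to 9.04 in the other B6 low-glucose mice.

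The remaining 9 sets were at other mice. B6 high glucose 5 was the highest of its group at Gpx2 (0.736) and at the Gpx1 probes A_51_P119726 (0.791) and A_52_P684378 (0.75). It alone of the high-glucose mice was read on the arrays scanned last, which it shared with B6 low glucose 1. Mouse and scan date cannot be told apart there. At Txn2 A_52_P590205, B6 high glucose 4 (0.828) and BLKS high glucose 3 (0.847) were the lowest of their groups, the former at 9.29 against 9.46 to 9.5. BLKS low glucose 4 was the lowest at Gstt1 (0.776), BLKS low glucose 1 the highest at Sod1 (0.758), B6 low glucose 5 the highest at Nfe2l2 A_51_P411271 (0.75) and B6 high glucose 1 the lowest at Gstm4 (0.716).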

How the results depend on the processing

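Counts of the chosen probes that passed the test moved with the scaling, the model and the mice left out. Without scaling between arrays they were 9 for the strain difference in high glucose (against 16), 10 for the glucose response in B6 (against 16) and 16 in BLKS islets (against 26). The shares of all probes were then 5.36%, 5.47% and 7.33%. With the authors' log2 table they were 6 in high glucose, 10 over both glucose conditions (against 21), 10 for the response in B6 and 10 in BLKS islets. With the array pair as a random replicate block they were 26 in high glucose, 18 in low glucose (against 0), 34 over both and 1 for the difference between responses (against 0), and with the pair as a fixed replicate block 7 in low glucose. Under the random block the shares of all probes rose too, to 25.2%, 16.1%, 33.5% and 0.805%. Under the fixed block the share in low glucose was 8.04%. The linear model of the study's methods, fitted to single dye values, which counts the dyes of a mouse as separate values, gave 26 in high glucose, 17 in low glucose, 30 for the response in B6 and 1 for the difference between responses. In low glucose, Cy3 alone gave 1 probe and leaving out both doubted libraries 22, the latter against 15.6% of all probes. Without 1 mouse at a time the counts were 11 to 19 in high glucose, 0 to 12 in low glucose, 19 to 26 over both, 11 to 19 for the response in B6, 17 to 27 in BLKS islets and 0 to 0 for the difference between responses. For the authors' table, single dye values, Cy3 alone and most fits without 1 mouse, shares of all probes are not given here. Those counts thus cannot be set against all probes. The direction of the Nnt response in B6 islets turned to 0.012, 0.052 and 0.10 (A_51_P113395, A_51_P113399 and A_52_P395228) without B6 low glucose 4, alone or with BLKS low glucose 5. Without 1 mouse at a time it lay between -0.48 and 0.012, between -0.41 and 0.052 and between -0.39 and 0.10. The causes were not tested beyond these alternatives. Over 91 results of single probes, no other direction turned under any alternative. Scaling moved the median of all tested probes by less than 0.1 in each comparison. The dim probes, such as Gsta3, Gsta4 and Gstm6, lie close to the background signal, where differences are compressed.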

Other observations

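In the order of genes given by RefSeq, several neighbours of Nnt also differed between the strains in high glucose, from a list of the 6 genes on each side that was chosen with earlier results known. Emb, the fourth gene before Nnt, was lower in BLKS islets at A_51_P382849 by -1.03 (limma adjusted p = 0.00552) and gave -0.21 at its other probe. Paip1, next after Nnt, was higher by 0.67, 0.66 and 0.52 at its 3 probes. The gene after it, 4833420G17Rik, was lower by -1.60 and -0.51, Hmgcs1, an enzyme of cholesterol synthesis, was lower by -0.84 (adjusted p = 0.000366) and Nim1k was higher by 0.46 at 1 of its 2 tested probes. Isl1, Parp8, Mrps30 and Ccl28 did not pass the test, and Fgf10 was not bright enough to be tested. The strain difference around Nnt was thus not confined to Nnt among these genes, and it had both directions.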
